A study of Mus musculus with 28 samples.

Results

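The Tdpoz and Usp17l genes of the mouse are 2 multicopy families that are transcribed in the early embryo, and their position relative to domains of the histone mark H3K9me2 was examined in sorted mouse embryonic stem cells. Members were the protein-coding genes whose symbol begins with Tdpoz on chromosome 3 or with Usp17l on chromosome 7 in the GENCODE annotation of mm10. This gave 10 genes, 5 Tdpoz and 5 Usp17l, of 21755 protein-coding genes on chromosomes 1 to 19 and X. The genes fell into 3 clusters, taking members more than 1 Mb apart as separate: Tdpoz2, Tdpoz1, Tdpoz4, Tdpoz3 and Tdpoz5, then Usp17ld with Usp17lc, then Usp17le with Usp17lb and Usp17la.

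The study profiled H3K9me2 by ULI-NChIP (immunoprecipitation of native chromatin from few cells) in 14 immunoprecipitated and 14 input libraries of BL6/129 hybrid mESCs. The sorted cells came from EHMT2-dTAG-mcherry MERV-GFP, 1 clone in which both the treated and the control cells carry a degron on EHMT2, the enzyme that deposits the mark, and a GFP reporter driven by the endogenous retrovirus MERVL. They were given DMSO or the degrader dTAG-13 for 72 h and sorted into mESCs, which lack GFP, and 2-cell-like cells (2CLCs), which carry it, with 3 immunoprecipitated and 3 input libraries in each of the 4 groups. TTNBP, an agonist of retinoic acid receptors, was added to increase the GFP-positive cells in 2 of the replicates according to the labels, and generally according to the methods, and it cannot be told apart by library. Unsorted EHMT2-dTAG-mcherry cells in DMSO for 24 h gave 2 immunoprecipitated and 2 input libraries. The files analysed give 1 list of domains for each of the 4 sorted conditions and a further list, called the unnamed set below, that is tied to no condition. They hold domain positions with no value per library, so no spread between replicates is known and no difference below was tested. The depth behind a domain is unknown. A domain was called from percentiles of its own sample's signal, so its presence after dTAG is not a level of the mark. Transcript levels were not analysed here, so the sorted cell types were taken from the labels and not checked against their markers.

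H3K9me2 is a repressive mark laid down in broad stretches by EHMT2 together with its partner EHMT1, and loss of EHMT2 raises the share of cultured cells that resemble the 2-cell embryo. Tdpoz proteins carry a TRAF-like (MATH) domain and a BTB/POZ domain, the architecture of SPOP, an adaptor that brings substrates to cullin-3 ubiquitin ligases. Usp17l genes, also known as the DUB family, encode deubiquitinating enzymes, which remove ubiquitin from proteins, and several were first described as genes induced by cytokines in blood cells.

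The copies of each family resembled each other in coding sequence, and how reads were assigned to them was not examined. Among the 10 pairs of Tdpoz genes the identity of the coding sequences ran from 78.4% to 88.1%, with a median of 83.2%. Among the 10 pairs of Usp17l genes it ran from 90.5% for Usp17le and Usp17lb to 98.4% for Usp17ld and Usp17lc, with a median of 93.2%. Each Tdpoz gene held its coding sequence in 1 exon, of 1023 bases in Tdpoz5 to 1113 bases in Tdpoz4, while the Usp17l genes had 2 coding exons, or 4 in Usp17le. The Usp17l coding sequences were between 1407 bases in Usp17lb and 1638 bases in Usp17ld and Usp17lc. For Tdpoz3, Tdpoz4, Tdpoz5, Usp17ld and Usp17le the annotated gene begins at the coding start, so a start here is not always a measured site of transcription initiation.

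The 250 bases before the RefSeq start were compared for the 7 members with a window in the RefSeq set of GRCm38.p6, the assembly of mm10: Tdpoz1, Tdpoz4, Tdpoz5, Usp17la, Usp17lb, Usp17lc and Usp17ld. Windows of Tdpoz2, Tdpoz3 and Usp17le were not used here. The longest run shared by the 4 Usp17l windows was 29 bases. On either strand, 4 of 32851 windows of all genes held it, these 4 themselves (0.0122%). Counted from the first base of that run, the hexamer TATAAA stood at an offset of 95 bases in Usp17ld, Usp17lc and Usp17lb. In Usp17la the hexamer at that offset was TTTAAA. The stretch from the run to the hexamer is given 5′ to 3′ on the strand of the gene, since it stands before genes of both Usp17l clusters. It is outside annotated exons in all 4, and in Usp17lc it lies in an intron of the GENCODE gene, whose start is farther upstream. Capitals mark the hexamer and the letters ATTGG, which are CCAAT on the other strand.
Usp17ld, chr7:103252610-103252710, minus strand: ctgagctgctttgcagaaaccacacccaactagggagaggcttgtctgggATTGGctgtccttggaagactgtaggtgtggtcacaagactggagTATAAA
Usp17lc, chr7:103416513-103416613, plus strand: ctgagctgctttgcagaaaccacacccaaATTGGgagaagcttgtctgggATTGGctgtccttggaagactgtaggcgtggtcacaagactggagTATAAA
Usp17lb, chr7:104842609-104842709, minus strand: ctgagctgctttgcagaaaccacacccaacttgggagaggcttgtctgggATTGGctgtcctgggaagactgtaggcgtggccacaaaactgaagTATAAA
Usp17la, chr7:104856875-104856975, plus strand: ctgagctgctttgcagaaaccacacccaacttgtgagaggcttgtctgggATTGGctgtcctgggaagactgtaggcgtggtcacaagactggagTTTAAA

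These 101 bases differed at 4 positions between Usp17ld and Usp17lc and at 5 or 6 positions in the other 5 pairs. The hexamer began 110 bases before the annotated start in Usp17ld, 88 in Usp17lc, 31 in Usp17lb and 46 in Usp17la. In Usp17la it carried the substitution A2T relative to TATAAA, counted from 1 at the first base of the hexamer. Searched on both strands, TATAAA was present in 3 of the 7 member windows and in 12.4% of the windows of all genes. The letters CCAAT were present in 5 of the 7, the 4 Usp17l windows and that of Tdpoz5, and in 33.8% of all windows. The letters GGGCGG, the core of a GC box, were present in 0 of the 7 and in 32.7% of all windows. These 3 motifs do not overlap each other by their letters, and a match is a description of the sequence only. The member windows were between 32.8% (Tdpoz4) and 46% (Usp17ld and Usp17lc) G and C, against a median of 52.4% over all windows, and held 0 to 3 CpG dinucleotides against a median of 6.

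All 10 genes started inside a domain in every one of the 5 sets. The share of all protein-coding genes that did so was 22.3% with DMSO and 23.6% with dTAG in mESCs, 23.2% with DMSO and 26.5% with dTAG in 2CLCs, and 30% in the unnamed set. Over the 4 sorted sets together, 15.1% of protein-coding genes started in a domain each time. The 10 genes are not 10 separate observations, since they lay in 3 domains in every sorted set, 1 for each cluster. The stretch from the first to the last member, of 310 kb for Tdpoz, 170 kb for Usp17ld and Usp17lc and 95 kb for Usp17le to Usp17la, was covered over 100% of its length in all 5 sets.

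Relatives elsewhere in the genome were partly inside and mostly outside domains. Of the 50 other protein-coding genes named Usp and a number, deubiquitinases of the same enzyme class, 3 with DMSO and 5 with dTAG started in a domain in mESCs, and 6 with either treatment in 2CLCs. Only Usp14, Usp25 and Usp38 did so in all 4. Of the relatives of the Tdpoz genes, Spop on chromosome 11 was outside a domain in all 5 sets and Spopl on chromosome 2 was inside one in all 5. The annotated pseudogene Usp17le-ps, which lies below Usp17le, started in a domain in all 5 sets.

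The 5 Tdpoz genes lay on chromosome 3 in mm10 in the order Tdpoz2 (93651542-93652686), Tdpoz1 (93669333-93676310), Tdpoz4 (93796398-93797510), Tdpoz3 (93826020-93827117) and Tdpoz5 (93960292-93961314). Tdpoz4 and Tdpoz3 are on the plus strand and the others on the minus strand. The domain that held them was 700 kb wide with DMSO and 760 kb with dTAG in mESCs, and 735 kb with DMSO and 700 kb with dTAG in 2CLCs. Its width therefore differed by at most 60 kb between sorted sets. The median width over all genes in a domain was 640 kb, 390 kb, 735 kb and 260 kb in the same order. Those medians are over different genes in each set. Among genes in a domain in both sets, the median ratio of dTAG to DMSO width was 0.986 in mESCs and 0.839 in 2CLCs. For Tdpoz the ratio was 1.09 and 0.952. The median ratio of 2CLC to mESC width was 1.04 in DMSO and 0.995 in dTAG, against 1.05 and 0.921 for Tdpoz. By width the Tdpoz domain ranked 521st of 4323 domains with DMSO and 296th of 7312 with dTAG in mESCs. In 2CLCs it ranked 438th of 4246 with DMSO and 299th of 8820 with dTAG. A stretch of 700 kb belonged to this domain in all 4 sets (chr3:93609387-94309385).

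**Figure D1:**
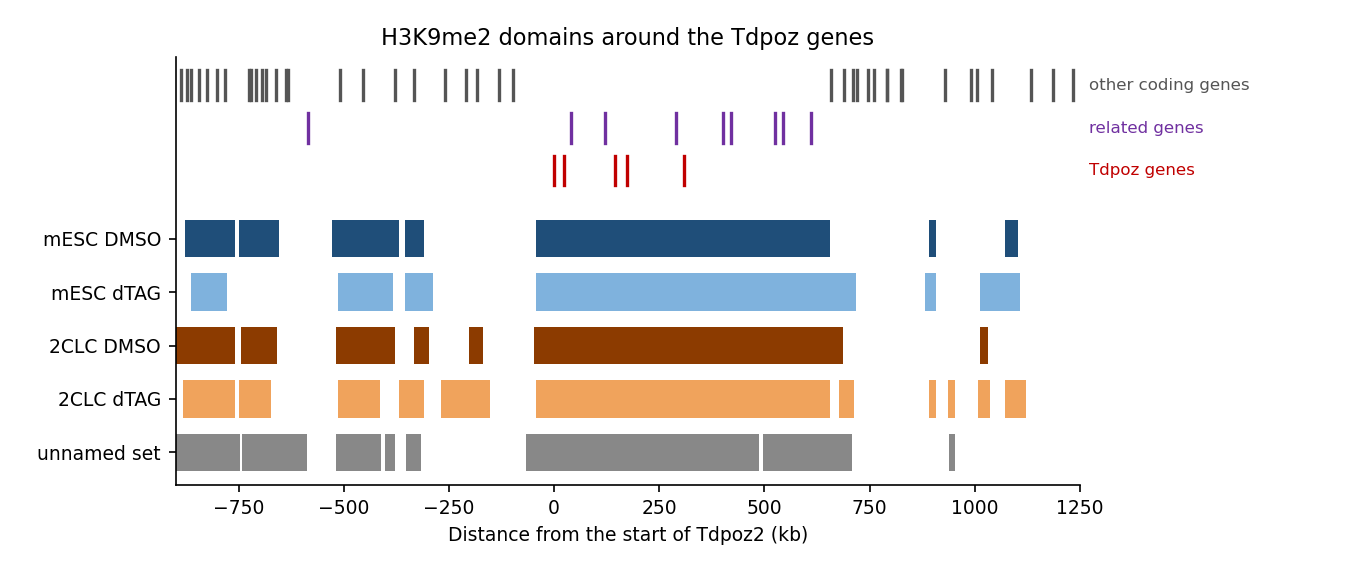
H3K9me2 domains (bars) around the Tdpoz genes by set, with distance from the start of Tdpoz2 in kb on the horizontal axis, larger coordinates to the right, and the starts of Tdpoz genes, related genes and other protein-coding genes as ticks. The domain that holds the 5 Tdpoz genes is 700 to 760 kb wide in the sorted sets, spans 8 related genes as well, and begins at the same place to within 5 kb.

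The lower border, the one at smaller coordinates, was at the same position in mESC DMSO, mESC dTAG and 2CLC dTAG, and 5 kb lower in 2CLC DMSO, which is 1 bin of the authors' grid. The lower border of all 5 Tdpoz genes thus moved by at most 1 bin, 6 kb being allowed for the grid, in each of the 4 comparisons of sets. Among all genes in a domain in both sets this was so for 21.4% after dTAG in mESCs, 21.6% after dTAG in 2CLCs, 30% between 2CLCs and mESCs in DMSO and 28.6% between them in dTAG. The median move of the lower border over those genes was 45 kb, 55 kb, 40 kb and 30 kb. Below the border came S100a10, the annexin A2 partner, whose start lay 54 kb outside in 3 sorted sets and 49 kb outside in 2CLC DMSO.

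The upper border was the part of this domain that varied. Relative to DMSO it lay 60 kb (12 bins) higher after dTAG in mESCs and 30 kb (6 bins) lower after dTAG in 2CLCs, and this difference was not tested. In DMSO it lay 30 kb higher in 2CLCs than in mESCs, and in dTAG 60 kb lower. The genes next to it changed accordingly. In mESC DMSO and 2CLC dTAG the first gene outside was Them4, an acyl-CoA thioesterase, 1 kb beyond the border. In 2CLC DMSO it was Them5, 3 kb beyond. In mESC dTAG Them4, Them5 and C2cd4d were inside. In 2CLC dTAG Them5 and C2cd4d also lay in a domain, a separate one that began 20 kb above the Tdpoz domain. The lower position of the upper border after dTAG in 2CLCs rested on that gap: with domains up to 25 kb apart joined, this border lay 25 kb higher than in DMSO in 2CLCs and 60 kb higher in mESCs, so higher after dTAG in both states.

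Most protein-coding starts inside these borders were of Tdpoz genes or their copies. In mESC DMSO and 2CLC dTAG the domain held 13 protein-coding starts, the 5 Tdpoz genes and 8 further genes named Gm37596, Gm5773, Gm9117, Gm9125, Gm10697, Gm10696, Gm5286 and Gm4778. In 2CLC DMSO it held 14, with Them4 added, and in mESC dTAG 16, with Them4, Them5 and C2cd4d added. Aligned with their closest member, the coding sequences of these 8 were 83.3% to 100% identical. Gm9117 and Gm9125 were each 98.5% identical to Tdpoz1, Gm5773 was 98.1% identical to Tdpoz2, and Gm37596 was 98.9% identical to Tdpoz5. Gm10697 was 100% identical to Tdpoz5 over all 1023 coding bases. RefSeq calls Gm9125 Tdpoz9, Gm10697 Tdpoz7 and Gm10696 Spopfm2, and lists Gm5773, Gm9117, Gm5286 and Gm4778 as pseudogenes, which GENCODE counts as protein-coding. Of 42 gene starts of any type in the domain of mESC DMSO, 28 were annotated pseudogenes.

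The windows before Tdpoz5 and its copy Tdpoz7 are shown where they differ, since they were alike at all but 1 of 250 bases. The capital letter is base 31 of the stretch, where the substitution from Tdpoz5 to Tdpoz7 is G31A, counted from 1 at the 5′ end.
Tdpoz5, chr3:93961357-93961416, minus strand: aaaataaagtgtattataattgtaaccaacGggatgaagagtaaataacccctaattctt
Tdpoz7, chr3:94072687-94072746, minus strand: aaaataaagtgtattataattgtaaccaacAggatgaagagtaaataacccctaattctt

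A further relative lay outside. Gm4858, which RefSeq names Tdpoz8 (chr3:93068823-93075505), was 94.3% identical to Tdpoz4 in coding sequence over 86% of the longer sequence, and its start was in no domain in any of the 5 sets. It was 56 kb (DMSO) and 71 kb (dTAG) from the nearest border in mESCs, 66 kb (DMSO) and 71 kb (dTAG) in 2CLCs and 4 kb in the unnamed set. Counting the genes that RefSeq names Tdpoz, 7 of 8 started in a domain in every set.

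The surroundings of the Tdpoz domain differed on either side. Below it, epidermal genes were partly in domains, with 53% of the 1 Mb below the widest extent of the domain covered with DMSO and 33.5% with dTAG in mESCs, and 58% with DMSO and 58.5% with dTAG in 2CLCs. Above it, 4.5%, 13.5%, 2% and 12% of 1 Mb were covered in the same order. The gap next to the lower border was 265 kb with DMSO and 245 kb with dTAG in mESCs and held Rptn, Tchh, Tchhl1, S100a11 and S100a10, of which Rptn, Tchh and Tchhl1 belong to the cornified envelope and hair follicle. It was 120 kb with DMSO and 110 kb with dTAG in 2CLCs and then held S100a11 and S100a10. The gap next to the upper border was 235 kb in mESC DMSO with 10 protein-coding starts, among them the piRNA factor Tdrkh and the mitochondrial ribosomal gene Mrpl9. It was 165 kb with dTAG in mESCs and 325 kb with DMSO in 2CLCs, and in 2CLC dTAG it was 20 kb and held Them4 alone.

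The 5 genes sat at different depths in their domain. In mESC DMSO the start of Tdpoz2 was 43 kb, that of Tdpoz1 67 kb, that of Tdpoz4 187 kb, that of Tdpoz3 217 kb and that of Tdpoz5 348 kb from the nearer border. In mESC dTAG and 2CLC dTAG the first 4 distances were the same, and in 2CLC DMSO each was 5 kb larger. For Tdpoz5, near the middle, the nearer border was the upper one in mESC DMSO and 2CLC dTAG (348 kb in both) and the lower one in mESC dTAG (352 kb) and 2CLC DMSO (357 kb). Over all genes in a domain the median was 105 kb with DMSO and 56 kb with dTAG in mESCs, and 116 kb with DMSO and 44 kb with dTAG in 2CLCs. Tdpoz2 and Tdpoz1 were thus closer to a border than the median gene in both DMSO sets, and Tdpoz4, Tdpoz3 and Tdpoz5 farther from it in all 4.

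**Figure D2:**
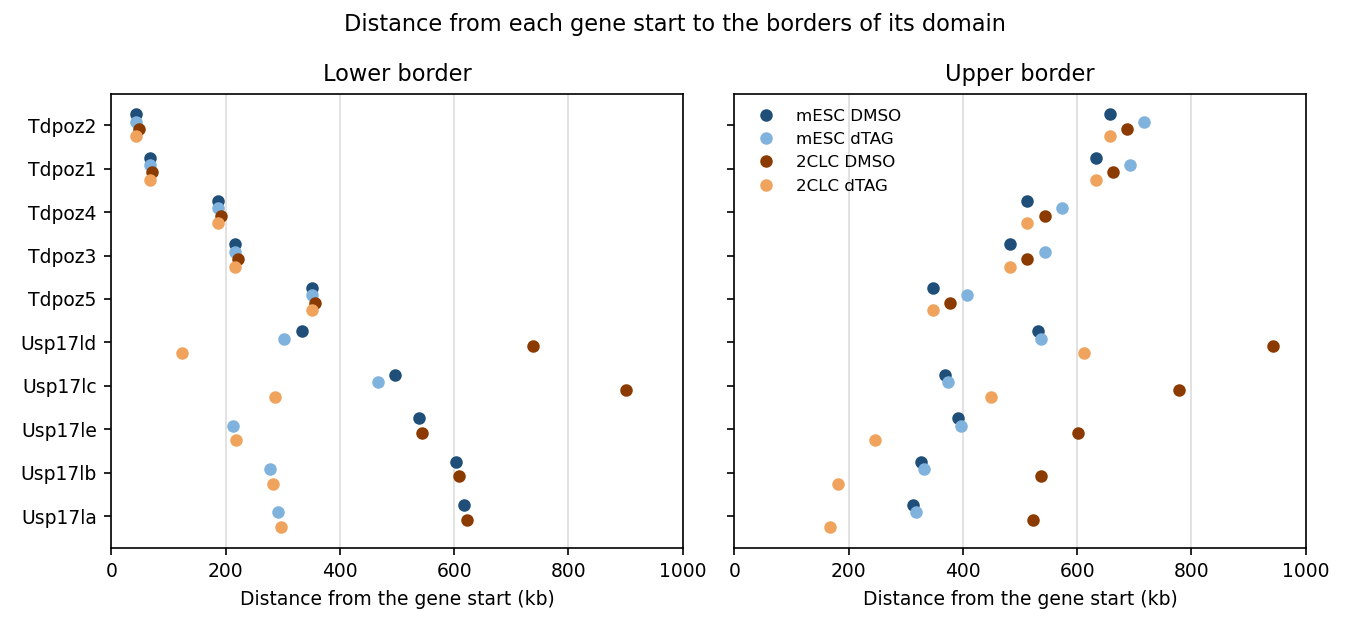
Distance in kb from the start of each of the 10 genes to the lower (left panel) and upper (right panel) border of its domain, with 1 point for each sorted set. The points of the Tdpoz genes lie within 5 kb of each other at the lower border and within 60 kb at the upper border, while those of the Usp17l genes spread over up to 615 kb.

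The Usp17l genes lay on chromosome 7 in 2 pieces inside the olfactory receptor region. Usp17ld (103249737-103252505, minus strand) and Usp17lc (103415072-103419880, plus strand) formed the first. Usp17le (104768049-104777470, minus), Usp17lb (104840257-104842603, minus) and Usp17la (104857009-104862667, plus) formed the second. On this chromosome olfactory receptor genes (Olfr) were mostly in domains, 233 of 244 with DMSO and 192 with dTAG in mESCs, and 229 with DMSO and 201 with dTAG in 2CLCs. Between Usp17ld and Usp17lc started 7 Olfr genes, Olfr596 to Olfr601 and Olfr603, all in the same domain in all 5 sets, and no other protein-coding gene started between Usp17le and Usp17la except Usp17lb.

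The domain around Usp17ld and Usp17lc was 865 kb wide with DMSO and 840 kb with dTAG in mESCs, and 1680 kb with DMSO and 735 kb with dTAG in 2CLCs. After dTAG its width was 0.971 of that in DMSO in mESCs and 0.437 in 2CLCs. In mESCs the lower border lay 30 kb higher after dTAG and the upper border 5 kb higher. In 2CLCs the lower border lay 615 kb higher after dTAG and the upper one 330 kb lower, both towards the genes. In DMSO the domain of 2CLCs reached 405 kb lower and 410 kb higher than that of mESCs, but only 15 kb lower and 10 kb higher where gaps of up to 10 kb were joined, since short gaps bounded the domain of mESCs. A stretch of 655 kb around the genes was in the domain in all 4 sets (chr7:103129525-103784523).

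The domain around Usp17le, Usp17lb and Usp17la was 930 kb wide with DMSO and 610 kb with dTAG in mESCs, and 1145 kb with DMSO and 465 kb with dTAG in 2CLCs. Its width after dTAG was 0.656 of that in DMSO in mESCs and 0.406 in 2CLCs. The lower border lay 325 kb higher after dTAG in both states. The upper border lay 5 kb higher in mESCs and 355 kb lower in 2CLCs. In DMSO, 2CLCs and mESCs differed by 5 kb at the lower border, and at the upper border the domain of 2CLCs reached 210 kb farther, or 5 kb farther with gaps of up to 10 kb joined. The stretch in the domain in all 4 sets was 460 kb (chr7:104564523-105024522).

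**Figure D3:**
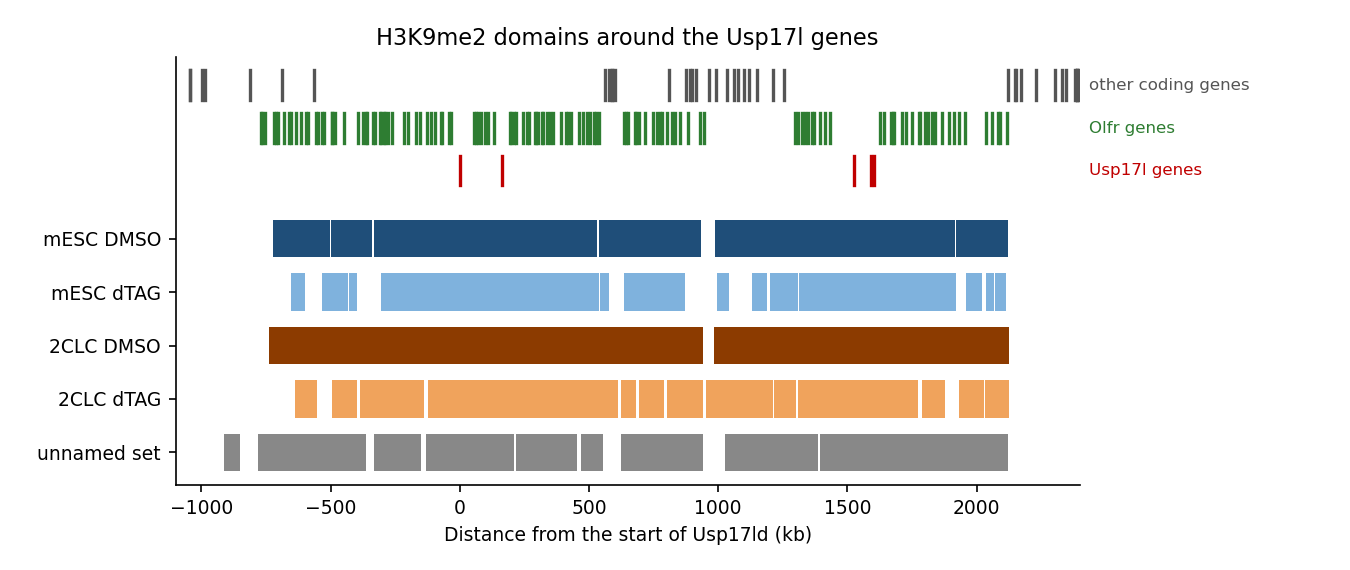
H3K9me2 domains (bars) around the Usp17l genes by set, with distance from the start of Usp17ld in kb on the horizontal axis, larger coordinates to the right, and the starts of Usp17l, Olfr and other protein-coding genes as ticks. In 2CLC DMSO 2 domains of 1680 and 1145 kb span the region. After dTAG gaps divide it, while every Usp17l gene stays inside a domain.

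The genes in which the Usp17l domains ended also changed. Around Usp17ld and Usp17lc the first gene below was Olfr571 with DMSO and Olfr574 with dTAG in mESCs, and Olfr545 with DMSO and Olfr586 with dTAG in 2CLCs. The first above was Olfr67 in both mESC sets, Olfr649 in 2CLC DMSO and Olfr66 in 2CLC dTAG. The domain of 2CLC DMSO held 91 Olfr genes and, among others, the beta-globin genes Hbb-bt, Hbb-bs, Hbb-bh2, Hbb-bh1 and Hbb-y, the antibody receptor gene Trim21 and the ubiquilin genes Ubqln5 and Ubqlnl. In 2CLC dTAG the same 5 globin genes were still inside with 39 Olfr genes. In the mESC sets this domain ended below them. In mESC DMSO all 5 lay in a separate domain that followed after a gap of 5 kb. In mESC dTAG Hbb-bt and Hbb-bs lay in a separate domain, and Hbb-bh2, Hbb-bh1 and Hbb-y in a gap. Around Usp17le to Usp17la the first gene below was Trim6 in both DMSO sets, Olfr652 in mESC dTAG and Olfr651 in 2CLC dTAG. The first above was Olfr685 in both mESC sets, Fam160a2 in 2CLC DMSO and Olfr675 in 2CLC dTAG. In both DMSO sets this domain took in 9 Trim genes, Trim34a, Trim5, Trim12a, Trim34b, Trim12c, Trim30b, Trim30c, Trim30a and Trim30d, which belong to a family of antiviral ubiquitin ligases. In both dTAG sets its protein-coding starts were those of Usp17l and Olfr genes only. In 2CLC dTAG only Trim30a of the 9 Trim genes lay in a gap, of 5 kb, and the others started in separate domains. In mESC dTAG Trim34a, Trim12a, Trim34b, Trim12c and Trim30b lay in gaps, and the others started in separate domains.

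Over the whole range reached by the domain of Usp17ld and Usp17lc in any sorted set (1680 kb), mESCs had 4 domains covering 97.6% with DMSO and 6 covering 77.1% with dTAG, and 2CLCs 1 covering 100% with DMSO and 7 covering 87.2% with dTAG. Over that of Usp17le to Usp17la (1145 kb), there were 2 domains covering 98.7%, 7 covering 83%, 1 covering 100% and 6 covering 92.6% in the same order. Each range was that of the domain in 2CLC DMSO itself, so its 1 domain and 100% were fixed by the choice of range. The dTAG sets had more pieces and lower coverage there than mESC DMSO as well. Domains were also more numerous after dTAG over chromosomes 1 to 19 and X, 7312 against 4323 in mESCs and 8820 against 4246 in 2CLCs. Their median width was 60 kb after dTAG in both states, against 140 kb in mESC DMSO and 115 kb in 2CLC DMSO. Between the first and the last member of any cluster, 0 gaps fell in any set. Within 1 Mb of Usp17ld and Usp17lc, gaps held 9 (DMSO) and 45 (dTAG) of 120 protein-coding starts in mESCs, and 8 (DMSO) and 23 (dTAG) in 2CLCs. Within 1 Mb of Usp17le to Usp17la they held 21, 41, 18 and 26 of 97 in the same order. Among all protein-coding genes, the share starting in a domain was 22.3%, 23.6%, 23.2% and 26.5% in that order, so not lower after dTAG.

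Much of the narrowing of the Usp17l domains in 2CLCs rested on short gaps. In 2CLC dTAG the gaps next to the 2 domains were 15 kb and 10 kb for Usp17ld and Usp17lc and 5 kb and 15 kb for Usp17le to Usp17la. Where domains no more than 10 kb apart were joined, all 5 Usp17l genes of 2CLC dTAG lay in 1 domain of 1895 kb, wider than the 1680 kb and 1145 kb of 2CLC DMSO, so that the direction turned. In mESCs the same joining gave 1655 kb in DMSO and 880 kb in dTAG around Usp17ld and Usp17lc, and 1135 kb and 720 kb around Usp17le to Usp17la, so that the direction was kept. The position of the upper border in mESCs was not kept: where it had lain 5 kb higher after dTAG for both clusters, it had shifts of -355 kb and -200 kb. The Tdpoz domain had the same width with and without joining at 10 kb in all 4 sorted sets.

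The Usp17l genes were far from borders in DMSO. In mESC DMSO the distances to the nearer border were 333 kb for Usp17ld, 369 kb for Usp17lc, 392 kb for Usp17le, 327 kb for Usp17lb and 313 kb for Usp17la. In mESC dTAG they were 303, 374, 213, 278 and 292 kb, and in 2CLC DMSO 738, 779, 543, 537 and 523 kb. With dTAG in 2CLCs they were 123, 286, 218, 182 and 168 kb, all below the values in the other sorted sets except for Usp17le, which was 213 kb from its nearer border in mESC dTAG. All 5 nevertheless lay farther from a border than the median gene of each sorted set.

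Taking the 3 clusters together, the widths differed between the sets as follows. After dTAG in mESCs the domain was narrower by more than 1 bin for 5 of 10 members, the Usp17l genes, against 53.1% of all genes in a domain in both sets, and wider for the 5 Tdpoz genes, against 41.0%. After dTAG in 2CLCs it was narrower for 10 of 10, against 62.6%. That count fell to the 5 Tdpoz genes, against 63%, with gaps of up to 10 kb joined, and to 0, against 61.2%, with gaps of up to 25 kb joined, when the domain was wider for 10 of 10, against 32.6%. In DMSO it was wider in 2CLCs than in mESCs for 10 of 10, against 57.8%. In dTAG it was narrower in 2CLCs than in mESCs for 10 of 10, against 46.3%. With gaps of up to 10 kb joined it was narrower for the 5 Tdpoz genes, against 42%, and wider for the 5 Usp17l genes, against 44.5%, and at 25 kb it was narrower for 0, against 37%. The upper border moved by at most 1 bin after dTAG in mESCs for the 5 Usp17l genes, against 20.7% of all genes, and for 0 of them, against 24.8%, with gaps of up to 10 kb joined. The counts after dTAG in mESCs and between states in DMSO were the same with either joining for widths. With only 3 domains behind the 10 genes, these counts are read as descriptions.

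The Zscan4 and Obox genes, also expressed at the 2-cell stage, were in wider domains in the sorted sets as deposited. All 8 Zscan4 genes shared a domain of 5275 kb with DMSO and 5590 kb with dTAG in mESCs, and 5290 kb with DMSO and 5740 kb with dTAG in 2CLCs. All 7 Obox genes shared one of 2515, 2595, 2520 and 2595 kb in the same order. In both families the domain as deposited was therefore wider after dTAG in either state. The Tdpoz domain as deposited was wider in mESCs only, and the Usp17l domains in neither state. With gaps of up to 25 kb joined, the Usp17l domain of 2CLC dTAG was 2370 kb wide. Joined widths of the Zscan4 and Obox domains were not computed. In the unnamed set the Zscan4 genes lay in 3 domains of 220 to 920 kb, with a median of 420 kb over the genes, and the Obox genes in 3 domains of 105 to 1015 kb, a range that held the 555 kb of Tdpoz and the 340 and 730 kb of Usp17l. No test of these differences was possible with 1 list per condition.

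**Figure D4:**
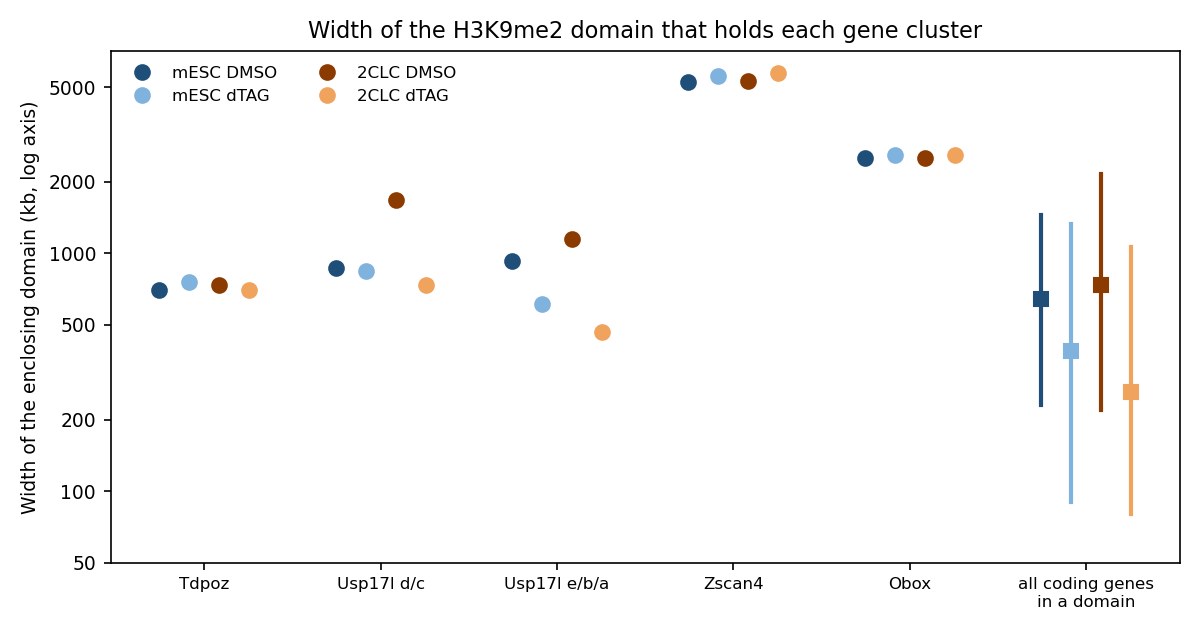
Width of the domain holding each gene cluster in the 4 sorted sets, in kb on a log axis, beside the median (square) and the interquartile range (line) over all protein-coding genes in a domain of that set. The Tdpoz points lie between 700 and 760 kb, the Usp17l points between 465 and 1680 kb, and the Zscan4 and Obox points at 2515 kb or more.

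The genes whose enclosing widths over the 4 sorted sets were most like those of a cluster were found by the Euclidean distance of log10 widths, taking 1 gene per domain of mESC DMSO. For Tdpoz they included Hnmt (distance 0.0506), the histamine-inactivating methyltransferase, and Olfr172 (0.0527). For Usp17ld and Usp17lc they were Nkain3 (0.181), Olfr485 (0.197) and Amd2 (0.209), and for Usp17le to Usp17la Astn2 (0.151), C6 (0.158) and Olfr485 (0.175). The widths around Olfr485, an olfactory receptor gene elsewhere on chromosome 7, were 1085, 755, 1190 and 630 kb.

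The Tdpoz domain was marked by repeated sequence. Of its 50-mers, counted on both strands, 58.1% (DMSO) and 53.7% (dTAG) occurred more than once on chromosome 3 for the domain of mESCs, and 55.4% (DMSO) and 58.1% (dTAG) for that of 2CLCs, against 8.47% over the whole chromosome. It had the highest share of all domains of at least 300 kb on the chromosome in each sorted set, of 89, 59, 86 and 55 such domains, whose medians were 10%, 11.5%, 9.81% and 11%. In mESC DMSO 52.7% of its 50-mers recurred within the domain itself, so most of the repetition was local. In the 1 Mb below and above the widest extent of the domain 9.4% and 9.4% of 50-mers were repeated. With 100-mers the share in mESC DMSO was 38.8%, against 4.48% over the chromosome. Soft-masked bases, the interspersed and simple repeats marked in the assembly, made up 51% of the domain and 35% of the chromosome.

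The stretches from the first to the last Usp17l gene of a cluster, genes included, also had a higher repeated share than their chromosome. It was 29.6% from Usp17ld to Usp17lc and 30.5% from Usp17le to Usp17la, against 14% over chromosome 7. Over the whole domains in mESC DMSO it was 16.7% and 18.4%, the 19th and 16th highest of 60 domains of at least 300 kb. The median of those domains was 11.4%. In 2CLC DMSO the share was 14.5% and 17.3%, against a median of 14.3%. With dTAG the share was not above the median: 17.1% and 15.4% against 17.1% in mESCs, and 17.4% and 15.2% against 17.4% in 2CLCs. The 1 Mb above the widest domain of Usp17le to Usp17la had 43.4%, more than either stretch from first to last gene. With 100-mers the whole domains of mESC DMSO were below the chromosome, at 7.87% and 7.41% against 9.39%. The stretches from first to last gene, at 14.7% and 12.7%, were above the chromosome. Reads matching several places were kept in the authors' alignment, and the part of such reads in the domains or their borders was not tested.

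**Figure D5:**
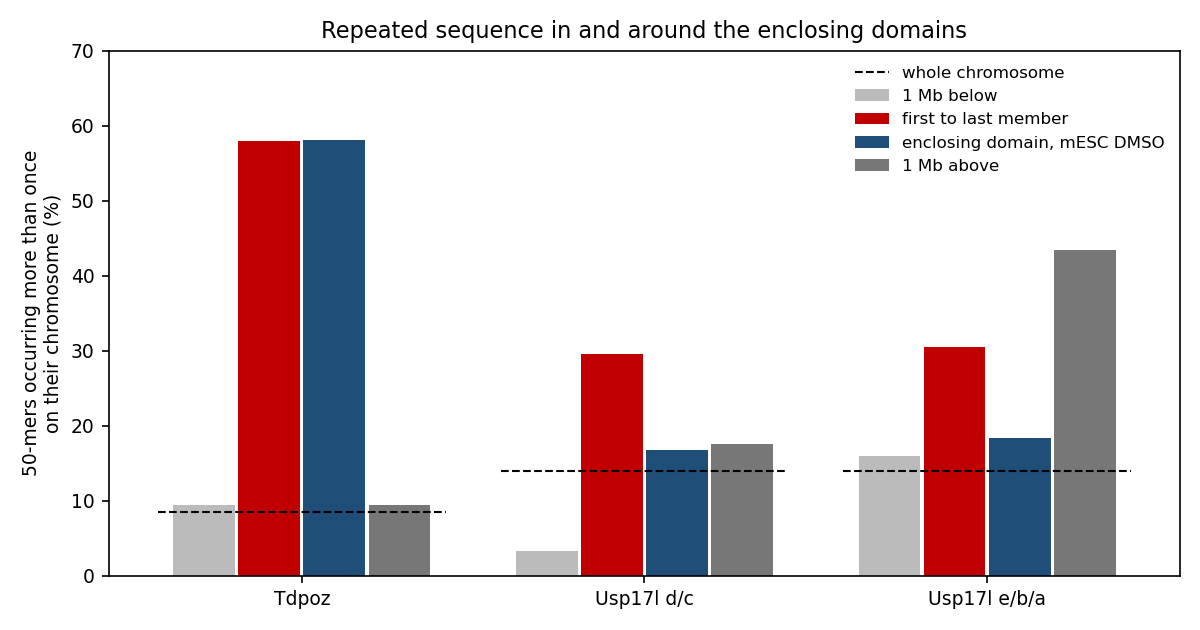
Share of 50-mers that occur more than once on their chromosome, in percent, for the 1 Mb below the widest enclosing domain, the stretch from first to last member, the enclosing domain of mESC DMSO and the 1 Mb above, with the whole chromosome as a dashed line. The Tdpoz domain reaches 58.1% against 8.47% for chromosome 3, while the 2 Usp17l domains, at 16.7% and 18.4%, stand beside 14% for chromosome 7.

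The unnamed set was called on another grid of bins and has no condition, so it is given by itself. Its Tdpoz domain was 555 kb wide (chr3:93585120-94140119), and a further domain followed after a gap of 10 kb, with Gm10696 as the first protein-coding gene above the border. The 2 domains of the unnamed set around Usp17l were 340 kb for Usp17ld and Usp17lc (chr7:103120558-103460556) and 730 kb for Usp17le to Usp17la (chr7:104645556-105375555). Usp17lc was 45 kb from the nearer border there and the other 4 Usp17l genes 132 to 211 kb.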

How the data were processed

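The authors aligned ULI-NChIP reads to mm10 with STAR 2.7.10, assigning reads with several matches, and removed duplicates (Picard 2.26.0) and reads in high-signal regions (SAMtools 1.14). Per the methods and the labels' processing notes, coverage from deepTools 3.5.1 was averaged in windows on a 5 kb step, locations without signal were ignored, and domains were seeded above the 80th percentile of log2(ChIP/Input) and extended until below the 30th. Whether replicates were pooled is not given in the sources used here. The deposited files hold the start and end of each domain and no signal.

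Starts were converted to 1-based positions and compared with GENCODE M21 gene starts (5′ end of the gene) and the GRCm38.p6 sequence in Python 3.11.15 with numpy 2.4.6, Biopython 1.88 and matplotlib 3.10.9. Identity is identical over aligned bases of a global alignment. Named genes were all members, their relatives, the first genes outside each border and the 3 most alike genes for each cluster, some of which are not reported here. Members and lists were chosen with earlier results of these data known. Counting code was tested on simulated data. Alternatives were minimum widths, joined gaps, other spans, biotypes and k-mer length.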

Additional observations from a re-analysis of the deposited data

Results flagged for a closer look

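The upper border of the Tdpoz domain moved in opposite directions after dTAG in the 2 cell states. It lay 60 kb higher than in DMSO in mESCs and had a shift of -30 kb in 2CLCs. The opposite direction rested on a gap of 20 kb above the domain in 2CLC dTAG. With domains up to 25 kb apart joined, the border lay 25 kb higher after dTAG in 2CLCs and 60 kb higher in mESCs. The difference between states was not tested, since each condition has 1 list of domains, and in the domains as deposited it reads as 12 bins against 6 bins of the grid. The lower border of the same domain moved by 0 kb and 5 kb.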

How the results depend on the processing

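Member counts in domains stayed at 10 for whole gene bodies, domains of 50 kb or more, and starts with 10 kb on each side. These alternatives could not lower the count, since every enclosing domain was at least 340 kb wide. Every start was at least 43 kb from a border, and no member was longer than 9422 bases. All biotypes gave 11 genes in a domain in every set. RefSeq symbols, chosen after seeing the data, gave 12, with 7 of the 8 RefSeq Tdpoz genes inside. The covered share of each span did not change with domains of 50 kb or more, and with 100 kb added on each side that of Tdpoz became 88.7% in both dTAG sets and mESC DMSO, 89.6% in 2CLC DMSO and 93.4% in the unnamed set.

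Joining domains up to 10 kb apart gave widths around Usp17ld and Usp17lc of 1655 kb with DMSO and 880 kb with dTAG in mESCs, 1895 kb with dTAG in 2CLCs and 585 kb in the unnamed set, and around Usp17le to Usp17la of 1135, 720, 1895 and 1095 kb in the same order. The Tdpoz domain of the unnamed set became 775 kb. Joining up to 25 kb gave 1655, 880, 2370 and 885 kb around Usp17ld and Usp17lc, 1135, 790, 2370 and 1095 kb around Usp17le to Usp17la, and 755 kb for Tdpoz in 2CLC dTAG and 775 kb in the unnamed set. These changes follow from the joining itself, which fills short gaps.

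With 10 kb joined, the upper border of Usp17ld and Usp17lc after dTAG shifted by -355 kb in mESCs and by 830 kb in 2CLCs, both reversed, and the lower border by 420 kb in mESCs. Between 2CLCs and mESCs it shifted by -15 kb (lower) and 10 kb (upper) in DMSO and by 1195 kb (upper) in dTAG. For Usp17le to Usp17la the upper border after dTAG in mESCs shifted by -200 kb and the lower one in 2CLCs by -1105 kb, both reversed, and the lower one in mESCs by 215 kb. Between 2CLCs and mESCs the upper border shifted by 5 kb in DMSO and the lower by -1325 kb in dTAG. Joining up to 25 kb, chosen for borders after seeing the data, gave an upper Tdpoz border shifted by 25 kb after dTAG in 2CLCs, reversed, and by -5 kb between 2CLCs and mESCs in dTAG.

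Counts of members, also recomputed after seeing the data, moved as follows. Brackets give the share of all genes in a domain in both sets, joined the same way. After dTAG in 2CLCs the domain was narrower for 5 members with 10 kb joined (63%) and 0 with 25 kb (61.2%). It was wider for 5 (31.5%) and 10 (32.6%). Between states in dTAG it was narrower for 5 (42%) and 0 (37%) and wider for 5 (44.5%) and 5 (49.8%). The upper border was within 1 bin after dTAG in mESCs for 0 (24.8%) and 0 (24.4%). Between states this was so in DMSO for 3 (34.2%) and 3 (33.2%), and in dTAG for 5 with 25 kb (27.1%). The lower border was within 1 bin between states in dTAG for 5 (28.9%) and 5 (30.2%).

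The median distance to the nearer border with 10 kb joined was 433 kb with DMSO and 310 kb with dTAG in mESCs and 266 kb in the unnamed set. With 1 member per domain it was 333 kb (DMSO) and 213 kb (dTAG) in mESCs, 543 kb (DMSO) and 123 kb (dTAG) in 2CLCs, and 132 kb in the unnamed set. With 100-mers the repeated share was 38.8%, 35.8%, 37%, 38.8% and 40.2% for Tdpoz in that order, 7.87%, 8.09%, 7.42%, 8.19% and 11.4% for Usp17ld and Usp17lc, and 7.41%, 5.21%, 7.38%, 4.62% and 6.34% for Usp17le to Usp17la.

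Leaving out a replicate was not run: the lists have no values per library. No paired analysis was possible because no result comes from a test. Depth and the spread between replicates are unknown, so the precision of a border is unknown and no finer than the 5 kb grid.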
